A study of Homo sapiens with 24 samples.

Results

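The genes of the chaperonin containing TCP1 (CCT, also called TRiC) were taken as a list of 9 coding genes: TCP1, CCT2, CCT3, CCT4, CCT5, CCT6A, CCT6B, CCT7 and CCT8, out of 20037 protein-coding genes on chromosomes 1 to 22, X and Y. A gene was marked where a deposited Myc peak reached within 1 kb of either end of its RefSeq span in hg38. The family was chosen on these same peaks, by which of its genes had one in either list, so the counts and levels of its own peaks below are a description and carry no test. Of the 9 genes, 8 had a Myc peak at day 5 of doxycycline, and 7 had one without doxycycline. CCT3 carried by far the most fragments of the family in both libraries, CCT4 was listed at day 5 only, and CCT6B had no peak in either library.

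CCT is a double ring of related subunits, with each ring holding a copy of every subunit, that closes around a newly made protein and uses ATP to help it fold. Its best known clients are actin and tubulin, and it also folds cell cycle regulators and many proteins built on WD40 repeats. Each subunit is encoded by a separate gene on a separate locus, and the zeta position has a pair of paralogues, CCT6A, found in most tissues, and CCT6B, found mainly in testis. Myc is a transcription factor that binds DNA with its partner Max, with the letters CACGTG, the canonical E-box, as its preferred site.

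The day 5 library came from Mia PaCa-2 cells, an established human pancreatic carcinoma line, that carry a doxycycline-inducible MED30 construct and are titled as 5 days on doxycycline. The library without doxycycline came from the same inducible cells left without the drug. The series profiles Myc, MED1 and MED30 in these cells with and without doxycycline, which allows a comparison of where they bind. MED30 is a subunit of the Mediator complex, which bridges transcription factors and RNA polymerase II. Other samples of the series come from cells with an inducible shMED30 construct. Both libraries used here were made by CUT&Tag with a Myc antibody, a method that has a transposase cut and tag the DNA beside bound antibody. Of the 24 samples of the series, 22 were not analysed here, with the IgG controls and a 1-day Myc library among them, and whether a control entered the peak calls is not stated. The shared protocol in the labels gives 2 days of doxycycline in place of 5. An effect of doxycycline itself and one of MED30 cannot be told apart in these libraries, and neither the MED30 level nor the identity of the cells was tested, since peak lists measure no expression. Each condition has 1 library, so differences between them have no replicate check.

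On those chromosomes the day 5 list held 6727 peaks and the list without doxycycline 3472. Neither list states its total reads. The measure used for a peak is the number of fragments over its summit, the highest point of the peak, recovered as a whole number from the deposited fold and p-value. The median was 12 fragments over all peaks at day 5 and 11 without doxycycline, and the lowest was 3 in each list. Intervals are exact 95% Poisson intervals that cover counting error only.

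A Myc peak within 1 kb was thus listed for 8 of the 9 CCT genes at day 5, where 27.4% of all coding genes had one, and for 7 of the 9 without doxycycline, where 14.4% of all coding genes had one. Both lists held a peak for 7 of the 9, against 12.9% of all coding genes. The 7 genes shared by both lists were TCP1, CCT2, CCT3, CCT5, CCT6A, CCT7 and CCT8. The distance limit decided no member: the peak of TCP1 began 129 bp outside the gene at day 5 and 101 bp outside it without doxycycline, every other listed member had a peak that overlapped its span, and the nearest peak to CCT6B lay 18.4 kb away in both lists. With the day 5 list trimmed to its 3472 best-ranked peaks, as many as the other list held, all 8 genes were still listed, against 15.7% of coding genes. Among peaks above their own list's median −log10 q there were 8 CCT genes at day 5 (15.3% of coding genes) and 5 without doxycycline (8.02% of coding genes), with CCT2 and CCT8 lost from the second.

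The promoter windows that follow come from strong, weak, day 5 only and unlisted members, or from neighbouring genes under their peaks. They are RefSeq sequences of build GRCh38.p14, 250 bases before a transcription start and 50 after it, on the strand of the named gene. RefSeq windows were found for 8 of the 9 members, all but CCT6A. The CCT3 window shares 267 bases with that of TSACC on the other strand, and the TSACC window is shown because it reaches nearer the Myc summit. Capitals mark 6-letter forms of the E-box on either strand. Besides CACGTG these were CACGCG (read as CGCGTG on the other strand) and CATGCG (there CGCATG). The others were CACGAG (on the other strand CTCGTG) and CATGTG (on the other strand CACATG). Where forms overlap, the capitals run on. In the SUMF2 label, far means the higher-coordinate end of CCT6A and says nothing on its strand.
TSACC window, over the CCT3 peak, chr1:156338276-156338575, plus strand: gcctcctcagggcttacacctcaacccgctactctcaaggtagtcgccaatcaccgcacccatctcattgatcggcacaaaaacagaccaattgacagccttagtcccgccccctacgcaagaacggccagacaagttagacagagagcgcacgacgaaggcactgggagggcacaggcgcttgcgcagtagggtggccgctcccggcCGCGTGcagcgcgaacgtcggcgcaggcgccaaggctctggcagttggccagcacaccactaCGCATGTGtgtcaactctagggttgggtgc
TCP1 window, chr6:159789553-159789852, minus strand: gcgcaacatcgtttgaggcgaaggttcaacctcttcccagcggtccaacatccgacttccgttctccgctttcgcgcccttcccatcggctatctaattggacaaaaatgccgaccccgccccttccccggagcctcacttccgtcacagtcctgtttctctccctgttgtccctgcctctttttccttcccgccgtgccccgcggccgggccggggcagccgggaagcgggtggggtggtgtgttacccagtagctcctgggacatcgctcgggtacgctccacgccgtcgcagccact
CCT4 window, chr2:61888622-61888921, minus strand: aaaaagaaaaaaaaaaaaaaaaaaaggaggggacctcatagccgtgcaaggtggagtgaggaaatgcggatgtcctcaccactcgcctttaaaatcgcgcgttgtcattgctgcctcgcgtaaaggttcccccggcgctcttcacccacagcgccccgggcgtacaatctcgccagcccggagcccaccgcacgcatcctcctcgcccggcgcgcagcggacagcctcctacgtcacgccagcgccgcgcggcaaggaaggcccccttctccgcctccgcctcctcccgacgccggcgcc
CCT8 window, chr21:29073599-29073898, minus strand: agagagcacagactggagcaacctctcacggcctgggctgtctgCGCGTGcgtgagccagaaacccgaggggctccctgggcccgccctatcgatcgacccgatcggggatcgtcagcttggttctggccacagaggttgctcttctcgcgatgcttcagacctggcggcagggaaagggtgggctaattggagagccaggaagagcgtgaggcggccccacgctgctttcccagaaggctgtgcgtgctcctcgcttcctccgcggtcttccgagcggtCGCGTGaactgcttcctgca
SUMF2 window, over the far CCT6A peak, chr7:56064036-56064335, plus strand: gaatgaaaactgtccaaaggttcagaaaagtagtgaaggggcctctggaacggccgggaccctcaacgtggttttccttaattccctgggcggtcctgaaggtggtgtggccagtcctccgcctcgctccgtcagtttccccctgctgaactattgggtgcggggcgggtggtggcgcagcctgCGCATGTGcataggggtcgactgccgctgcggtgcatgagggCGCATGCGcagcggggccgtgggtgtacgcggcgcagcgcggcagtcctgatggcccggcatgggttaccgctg
CCT6B window, chr17:34961411-34961710, minus strand: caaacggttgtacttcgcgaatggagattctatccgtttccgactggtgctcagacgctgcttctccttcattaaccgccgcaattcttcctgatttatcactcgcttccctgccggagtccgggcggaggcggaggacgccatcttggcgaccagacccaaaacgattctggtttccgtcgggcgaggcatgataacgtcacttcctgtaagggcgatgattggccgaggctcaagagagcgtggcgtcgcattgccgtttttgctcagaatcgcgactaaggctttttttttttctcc

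No window of a CCT gene held CACGTG, in 10 windows of 8 members, and none of the 9 windows of neighbouring genes under a CCT peak held it either. Over all 22199 windows of coding genes in the table, 8.34% held CACGTG, and of the 5282 that overlapped a day 5 peak, 13.9% did. At least 1 of the related forms was present for 4 of the 8 members, CCT2, CCT3, CCT5 and CCT8. By window this was 5 of 10, that of the unlisted CCT6B included, against 32.8% of all windows and 42.9% of those under a day 5 peak. CATGTG, the only form in the CCT5 window, was in 6.04% of windows under a day 5 peak and in 9.84% of the others. The other related forms were each more frequent under day 5 peaks. CCT2 and CCT4 each have a pair of windows in the table, which gives them more letters to match. These matches are letters in a window, and 300 bases do not cover the whole of most CCT peaks. Distances from such forms to summits are given below without those of other genes, so whether they are short was not tested. The day 5 summits of CCT3, CCT7, TCP1, CCT5 and CCT6A lay in none of these windows, so the sequence at them was not read. Without doxycycline the same held for TCP1, CCT7, CCT2 and CCT8 and for the PSPH end of CCT6A. The neighbours PSPH and ATPSCKMT had no window in the table. With 1 window a member, that nearest the end of the span, GC content ran between 54% (CCT6B) and 64.3% (CCT8), where the median of all windows was 62.3% and that of windows under a day 5 peak 65.3%.

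CCT3, the gamma subunit, whose gene spans 156308968 to 156338292 on chromosome 1, had 81 fragments over the summit at day 5 (interval 64.3 to 101) and 72 without doxycycline (56.3 to 90.7). The caller's local background there was 4.38 fragments at day 5 and 4.04 without doxycycline. The authors' own fold at the summit was 15.2 at day 5 and 14.5 without doxycycline, where every other CCT peak had at most 10.4 in either library. Among genes with a peak it stood at place 12 of 5486 at day 5 and at place 14 of 2894 without doxycycline, and the next member, CCT7, was at place 286 at day 5 and at place 218 without doxycycline. The peak covered 156338280 to 156339018 at day 5 and 156338249 to 156338874 without doxycycline, so it began at the 5′ end of CCT3 and ran outward. The summit lay 307 bp outside the gene at day 5 and 276 bp outside it without doxycycline. Both summits fell inside TSACC, a gene for a testis co-chaperone that is transcribed the other way: the spans overlap, a RefSeq start of TSACC lies 234 bp from that of CCT3, and the summits were 73 bp past it at day 5 and 42 bp past it without doxycycline. The overlapping related forms CGCATG and CATGTG in the TSACC window shown above had their middles within 50 bp of the day 5 summit and within 19 bp of the summit without doxycycline. The CGCGTG of the same window was 112 bp from the day 5 summit and 81 bp from the other. A CACATG in another TSACC window was 140 bp from the day 5 summit and 171 bp from the other.

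CCT7, TCP1 and CCT5 came next in order, with fragment numbers that differed among them by less than their counting intervals. These intervals also overlapped those of some weaker members, such as CCT4 at day 5 (12.2 to 30.9), so they do not set the 3 apart. CCT7, the eta subunit, had 38 fragments at day 5 (26.9 to 52.2) and 29 without doxycycline (19.4 to 41.6). TCP1, the alpha subunit, first known from the mouse t-complex, had 33 at day 5 (22.7 to 46.3) and 22 without doxycycline (13.8 to 33.3). CCT5, the epsilon subunit, mutated in a hereditary sensory neuropathy, had 30 at day 5 (20.2 to 42.8) and 22 without doxycycline (13.8 to 33.3). The CCT3 interval lay above those of all 3 in both libraries. At day 5 their peaks ranked at 276 (CCT7), 285 (TCP1) and 693 (CCT5) of 6727, and without doxycycline at 203 (CCT7), 264 (TCP1) and 543 (CCT5) of 3472. The lowest of these places, that of CCT5 without doxycycline, was still in the top 15.6% of its list.

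Each of these 3 peaks reached a neighbour that is transcribed away from the CCT gene or lies against its 5′ end. The TCP1 summit was at 159789958 on chromosome 6 at day 5 and at 159789951 without doxycycline, 7 bp apart. It was 356 bp outside TCP1 at day 5 and 349 bp outside it without doxycycline, which placed it inside MRPL18, a gene for a protein of the mitochondrial ribosome, 146 bp past that gene's start at day 5 and 139 bp past it without doxycycline. The TCP1 window above was covered by the peak for 122 of its 300 bases at day 5 and for 150 without doxycycline, and held no form searched.

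The CCT7 peak, 73233462 to 73234625 on chromosome 2 at day 5 and 73233441 to 73234620 without doxycycline, filled most of the 1024 bp between the starts of CCT7 and PRADC1, which encodes a secreted protein with a protease-associated domain. Its summit lay 504 bp from CCT7 and 520 bp from PRADC1 at day 5, and 616 bp from CCT7 and 408 bp from PRADC1 without doxycycline. The CCT5 summit was 57 bp outside the gene at day 5 and 419 bp inside it without doxycycline. That shift of 476 bp was the largest among the 8 pairs of CCT peaks, which ran down to the 7 bp of TCP1. The span of ATPSCKMT, a lysine methyltransferase of the ATP synthase c subunit, ends 33 bp from that of CCT5, and the day 5 summit fell 24 bp inside it. The only form in the CCT5 window, CATGTG, had its middle 674 bp from the day 5 summit and 198 bp from the other.

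CCT4, the delta subunit, whose mutation causes a sensory neuropathy in the rat, was the only CCT gene with a peak in just 1 list, against 14.5% of coding genes listed at day 5 only. Its day 5 peak, 61888096 to 61888937 on chromosome 2, had 20 fragments (12.2 to 30.9) and ranked at 1074 of 6727. The list without doxycycline had no peak within 13.1 kb of the gene. Among the 650 other genes with a day 5 peak within 10% of 20 fragments, 458 (70.5%) were also listed without doxycycline, with a median of 13 fragments there. CCT4 thus belonged to the smaller share of genes of that strength. A gene off the list had no peak strong enough for the authors' caller, and may still have carried Myc. The CCT4 peak also covered the start of COMMD1, a component of the Commander trafficking complex, which is transcribed the other way and overlaps CCT4. The summit was 71 bp outside CCT4, and a RefSeq start of COMMD1 lay 17 bp from it. The CCT4 window above lies wholly under the day 5 peak and contains its summit, and neither it nor the COMMD1 windows held any of the forms searched.

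CCT2, CCT8 and CCT6A had the weakest listed peaks of the family. CCT8, the theta subunit, had 14 fragments at day 5 (7.65 to 23.5) and 7 without doxycycline (2.81 to 14.4). CCT2, the beta subunit, mutated in an inherited retinal dystrophy, had 11 at day 5 (5.49 to 19.7) and 7 without doxycycline (2.81 to 14.4). The median over all genes with a peak was 12 fragments at day 5 and 11 without doxycycline, so CCT8 stood just above it at day 5 and the other values of CCT8 and CCT2 stood below it. The CCT8 summit lay 93 bp outside the gene at day 5 and 308 bp outside it without doxycycline, and the one CGCGTG of its window that falls before the start was 110 bp from the first and 104 bp from the second. The other CGCGTG, past the start, was 125 bp from the first and 340 bp from the second. CCT2 was the only member besides CCT5 with a summit inside the gene at its 5′ end, 181 bp in at day 5 and 56 bp in without doxycycline. The forms in the CCT2 windows lay 4 to 161 bp from the day 5 summit and 36 to 190 bp from the other. Neither CCT2 nor CCT8 had the end of another coding gene within 1 kb of its peak. A pair of microRNA genes, MIR3913-1 and MIR3913-2, did have ends within 1 kb of the CCT2 peaks, with the summits 817 bp or more away at day 5 and 692 bp or more away without doxycycline.

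CCT6A, the zeta subunit of most tissues, was the only member with a peak at each end of its span, 56051765 to 56063989 on chromosome 7, in both libraries. At the end beside PSPH, which encodes the last enzyme of serine synthesis, it had 14 fragments at day 5 (7.65 to 23.5) and 11 without doxycycline (5.49 to 19.7). At the end beside SUMF2, a paralogue of the enzyme that activates sulfatases, it had 14 in each library (7.65 to 23.5). The SUMF2 end had the better rank in both lists, 2885 against 3158 at day 5 and 1074 against 2110 without doxycycline, and was therefore the peak that represented CCT6A. Its summit was 6 bp inside CCT6A and 303 bp from SUMF2 at day 5, and 200 bp outside CCT6A and 97 bp from SUMF2 without doxycycline. The promoter table gives no strand for CCT6A, so whether its start lies at the SUMF2 end or at the PSPH end was not settled here. In the SUMF2 window shown above, the run CGCATGTG begins with a related form whose middle lay 33 bp from the summit without doxycycline and 239 bp from the day 5 summit. The run CGCATGCG begins with one 75 bp from the summit without doxycycline and 281 bp from the day 5 summit. Summed over both ends CCT6A had 28 fragments at day 5 and 25 without doxycycline. The pseudogene CCT6P1 is a close copy of CCT6A, and the treatment of reads that map to several places is not stated. The CCT6A values are uncertain to that extent.

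CCT6B, the testis paralogue, with a span of 34927861 to 34961460 on chromosome 17, had no peak in either library. It lies head to head with ZNF830, a zinc finger protein, and no peak was listed there. The nearest peak of both lists lay beside LIG3, a DNA ligase. The CCT6B window shown above had none of the forms searched, as also held for the TCP1, CCT4 and CCT7 windows, which lie at listed genes.

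**Figure D1:**
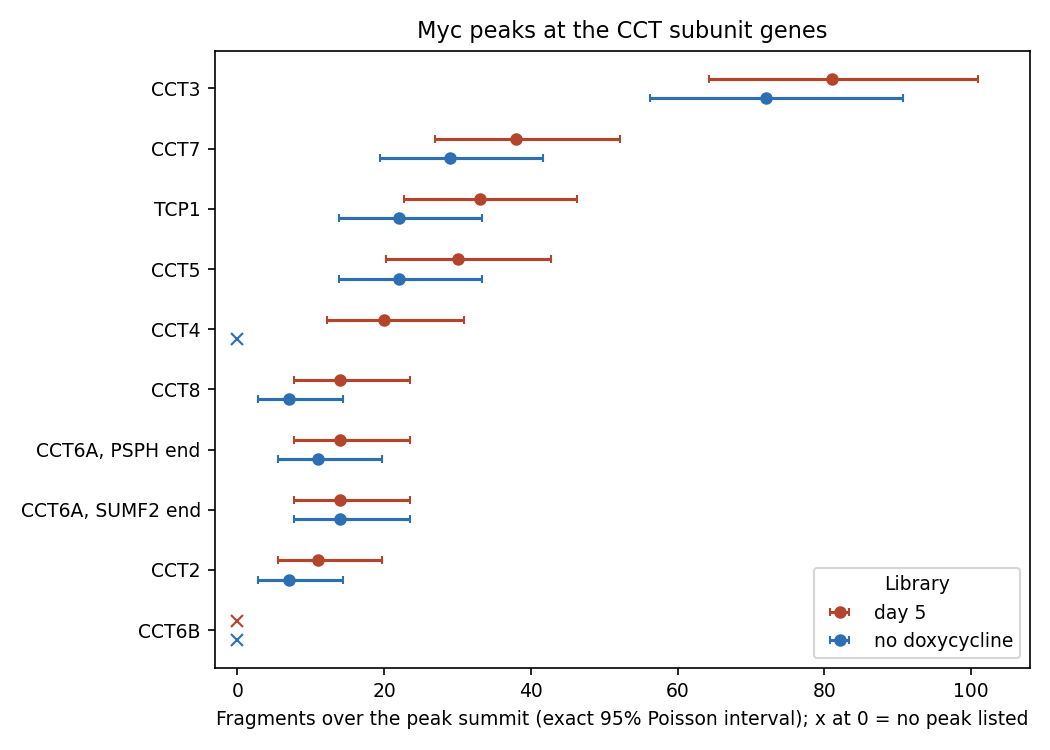
Fragments over the summit of each CCT peak (x axis, number of fragments) at day 5 (red) and without doxycycline (blue), with exact 95% Poisson intervals; a cross at 0 means that no peak was listed. CCT3 stands at 81 fragments at day 5 and 72 without doxycycline, and the other members lie at or below 38.

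Between the libraries, the summit fragments of the 7 members in both lists were 1 to 2 times as many at day 5. Over all 2580 coding genes with a peak in both lists the ratio had a median of 1.43 and quartiles of 1.13 and 1.82, and 81.5% of those genes had a ratio above 1. These ratios also carry any difference in depth between the libraries, and in bulk cells fewer cells with Myc at a site and less Myc per cell cannot be told apart. The ratio was 2 for CCT8 (counting interval 0.755 to 5.86), 1.57 for CCT2 (0.556 to 4.78) and 1.5 for TCP1 (0.849 to 2.7). It was 1.36 for CCT5 (0.761 to 2.48), 1.31 for CCT7 (0.787 to 2.2) and 1.12 for CCT3 (0.809 to 1.57). For CCT6A it was 1 at the SUMF2 end (0.442 to 2.26) and 1.27 at the PSPH end (0.537 to 3.1). A ratio of at least 1.5 was found for 3 of the 7 members and for 46.6% of the 2580 genes. Every counting interval includes both 1 and the median of all genes, so at this depth no member's ratio could be told from that of the libraries as a whole. That does not show that the ratios were alike.

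**Figure D2:**
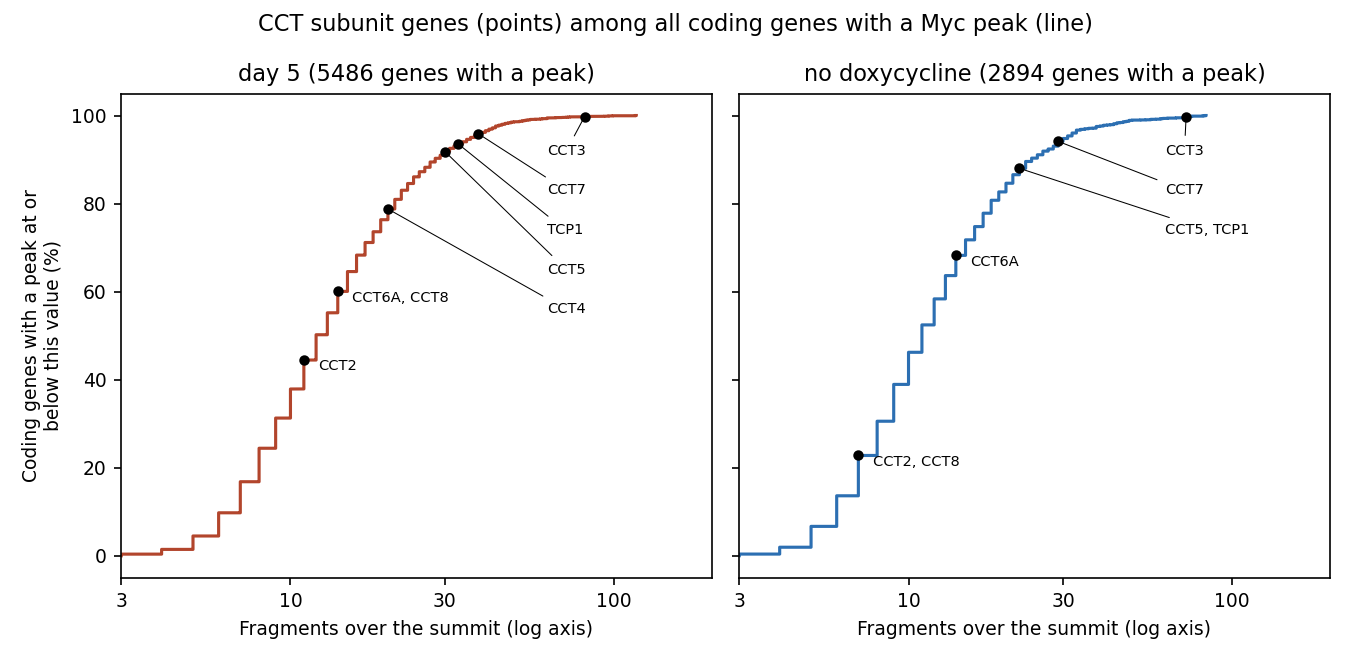
Share of coding genes with a peak (y axis, percent) at or below a number of summit fragments (x axis, log scale) at day 5 (left) and without doxycycline (right), with the CCT genes as points. CCT3 lies at the top end of both curves with 81 fragments at day 5 and 72 without doxycycline, and at day 5 CCT2 lies at 11 and CCT8 at 14, against 7 each without doxycycline.

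The members were chosen by peaks within 1 kb of either gene end, so peaks elsewhere along a gene could not count. Which end held the peak, on which side of it the summit lay, and the distance to other genes were not used. For the 8 members whose strand is given by the table, every listed peak was at the 5′ end of the gene, 7 at day 5 and 6 without doxycycline. Of genes with a peak and a known strand, 92.1% at day 5 and 92.4% without doxycycline had the summit within 1 kb of the 5′ end, so the members were close to the background in this. The summit lay outside the gene for 6 of the 7 at day 5 and 4 of the 6 without doxycycline, where 48.6% of all summits within 2 kb of the 5′ end of a span lay outside it at day 5 and 50.8% without doxycycline. These counts go by the end of the span. The only RefSeq start of CCT5 in the promoter table lies 616 bp inside the span, and both CCT5 summits were upstream of that start, by 673 bp at day 5 and by 197 bp without doxycycline. CCT2 has a second RefSeq start 430 bp inside its span, and its summits lay upstream of that one, by 249 bp at day 5 and by 374 bp without doxycycline. The peak that represents the member also reached within 1 kb of another coding gene's end for 6 of 8 members at day 5 (TCP1, CCT3, CCT4, CCT5, CCT6A and CCT7), against 39.7% of all genes with a peak. Without doxycycline this held for 5 of 7 members, against 42.3%. CCT2 and CCT8 were the members without such a neighbour. A peak placed between such genes cannot be given to one of them from its position, and the fragment numbers above are also those of MRPL18, TSACC, COMMD1, ATPSCKMT, SUMF2 and PRADC1. The same limit holds for the CCT6A peak at the PSPH end, whose summit lay 132 bp from PSPH at day 5 and 171 bp from it without doxycycline.

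**Figure D3:**
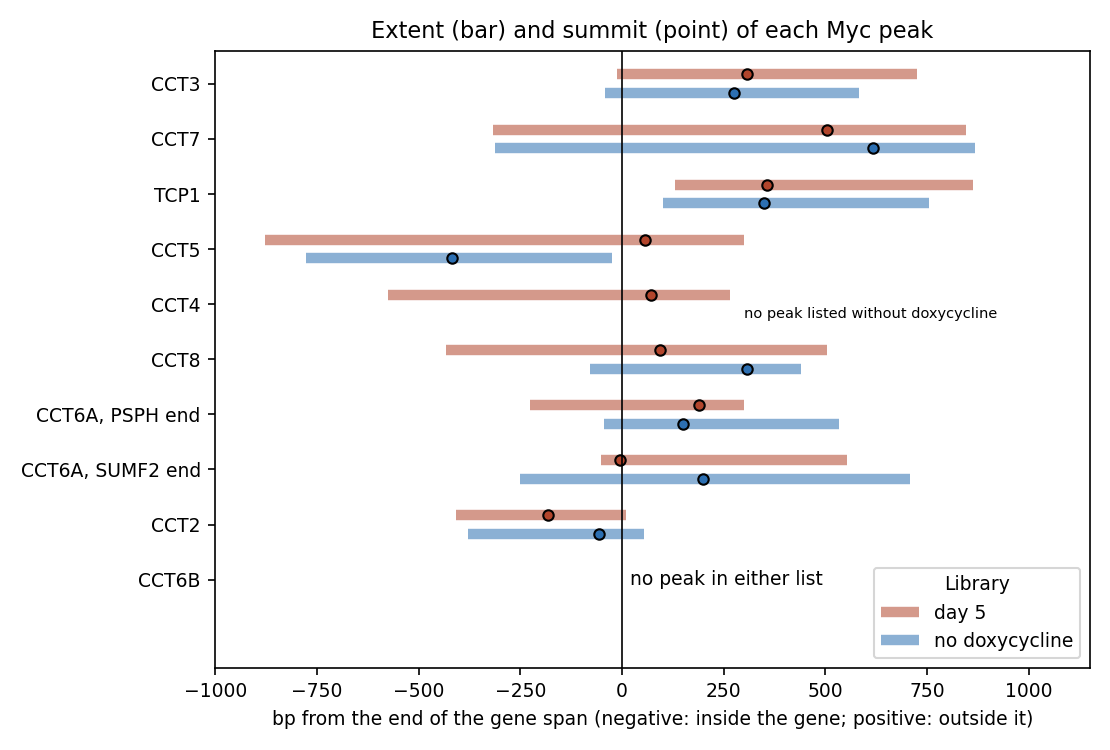
Extent (bar) and summit (point) of each CCT peak at day 5 (red) and without doxycycline (blue), in bp from the nearest end of the gene span, negative inside the gene. The TCP1 peaks lie wholly outside the gene, the CCT2 summits inside it, and the CCT5 summit moves across the gene end by 476 bp between the libraries.

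The partners and clients of the chaperonin, together with related chaperonin genes, were then read in the same way. Of 50 such genes in 8 lists, 29 (58%) had a peak at day 5 and 16 (32%) without doxycycline. Of all coding genes, 27.4% had one at day 5 and 14.4% without doxycycline. HSPD1 and HSPE1 of the mitochondrial chaperonin share a peak and were counted separately. The lists were chosen for this family with the peaks already known, so these counts are a description. Some of these peaks were also those of another coding gene, as for TBCC with BICRAL, TXNDC9 with EIF5B, RUVBL1 with EEFSEC and PFDN2 with NIT1. Such peaks cannot be given to either gene from their position. Prefoldin, which hands unfolded actin and tubulin to CCT, had a peak for 3 of 6 subunits at day 5, PFDN5 with 9 fragments, PFDN2 with 7 and PFDN4 with 6, and for 0 without doxycycline. Of the phosducin-like co-chaperones, which bind CCT and tune its work, 3 of 4 were listed at day 5 and 1 without doxycycline. PDCL3 had 20 fragments at day 5 and 15 without doxycycline, while TXNDC9 with 13 and PDCL with 7 were listed at day 5 only.

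The cofactors that take tubulin on from CCT had peaks for 4 of 6 genes at day 5 and for 3 without doxycycline. TBCB, which binds alpha-tubulin, had 60 fragments at day 5 and 75 without doxycycline, and it ranked at 40 at day 5 and 8 without doxycycline. TBCC, which completes the folding of the tubulin pair, had 25 at day 5 and 11 without doxycycline. TBCE had 15 at day 5 and 12 without doxycycline, and TBCA, which binds beta-tubulin, had 9 at day 5 only. TBCB was thus the only one of these cofactors with a peak in both lists that had fewer fragments at day 5. Among the actin and tubulin genes themselves 4 of 12 were listed at day 5 and 3 without doxycycline. TUBA1B had 18 fragments at day 5 and 9 without doxycycline, and ACTB 17 at day 5 and 9 without doxycycline. ACTG1 with 19 and TUBA1A with 7 were listed at day 5 only, and TUBB3 with 23 without doxycycline only. Actin and tubulin genes have near-identical copies elsewhere in the genome, so their values carry the same doubt as those of CCT6A.

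Of 10 other clients, 8 were listed at day 5 and 4 without doxycycline. PPP2R2A, a regulatory subunit of phosphatase 2A, had 19 fragments at day 5 and 12 without doxycycline. FZR1 and CDC20 activate the anaphase-promoting complex. FZR1 had 16 at day 5 and 9 without doxycycline, and CDC20 had 13 at day 5 and 9 without doxycycline. The G protein beta subunits GNB2 with 25 and GNB1 with 17, MLST8 with 11 and RPTOR with 9, both of the mTOR complex, and VHL with 9 were listed at day 5 only. WRAP53, a telomerase factor with WD40 repeats, had 18 without doxycycline only. The R2TP and prefoldin-like complex helps to assemble large protein machines. In the R2TP and prefoldin-like complex 3 of 7 genes were listed at day 5 and 2 without doxycycline. UXT had 48 fragments at day 5 and 44 without doxycycline, RUVBL1 with 14 and PDRG1 with 5 were listed at day 5 only, and RUVBL2 with 14 without doxycycline only. Of the chaperonin-like Bardet-Biedl proteins, MKKS had 13 fragments in each library, BBS10 had 7 at day 5 only, and BBS12 had no peak. The mitochondrial chaperonin HSPD1 and its partner HSPE1 stand side by side and share 1 peak, with 43 fragments at day 5 and 14 without doxycycline.

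**Figure D4:**
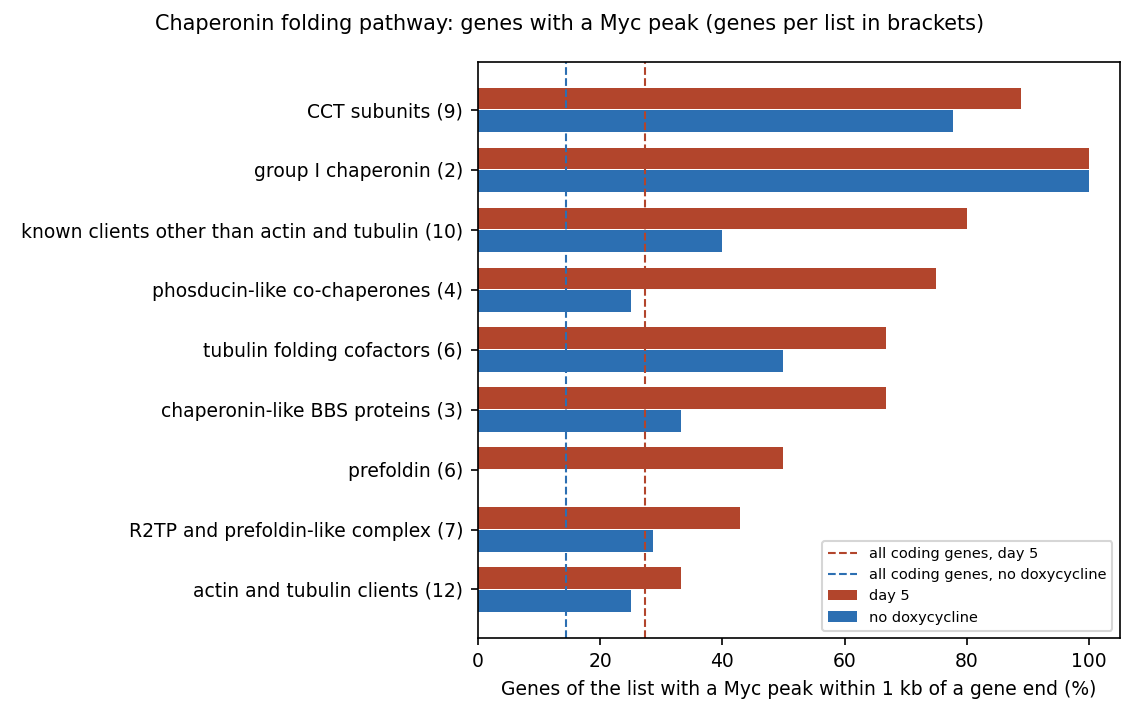
Share of the genes of each list with a Myc peak within 1 kb of a gene end (x axis, percent) at day 5 (red) and without doxycycline (blue); dashed lines give the shares of all coding genes, 27.4% at day 5 and 14.4% without doxycycline, and brackets the number of genes. The CCT subunits reach 88.9% at day 5 and 77.8% without doxycycline, and prefoldin has no bar without doxycycline because 0 of its 6 genes were listed.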

How the data were processed

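Myc CUT&Tag peak lists of 1 library at day 5 of doxycycline and 1 without it were used, grouped by their titles. The submitters' processing notes name build hg38 and the tools MACS2, Bowtie2, Trim Galore and deepTools. Their versions and settings, the handling of duplicates and any control in the calls: not given in the sources used here. Peaks were called per library. Per column, the authors deposited a score (the integer part of 10 times the −log10 q-value), the fold at the summit over local background (a ratio), the −log10 p-value, the −log10 q-value and the summit offset. These serve to rank peaks within a list. Total depth is unknown.

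Fragments over a summit were recovered from the deposited fold and p-value, taking fold as (fragments + 1)/(background + 1) and p as a Poisson tail, within 0.001 in −log10 p. A test on data simulated from the same formulas covered the recovery step only, not whether the deposited values follow those formulas. In each list 100% of the peaks used gave a solution within that limit. A gene's peak is the one with the highest −log10 q within 1 kb of either end of its span in the RefSeq table of GRCh38.p14, the hg38 assembly; positions count from 1. Strand and sequence came from the RefSeq promoter table. Ratios have intervals from the exact binomial. Python 3.11.15, scipy 1.17.1 and pandas 2.3.3 were used. The members and lists were chosen with earlier results of these data known. Named genes were all members, their neighbours, pseudogenes with a peak, the pathway genes listed in 1 library, the 3 highest-ranked of each pathway list and the 3 genes nearest CCT3 in rank, with ties. Alternatives were other windows, ends, summits, list parts, overlaps, peak sums and motif forms.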

Additional observations from a re-analysis of the deposited data

How the results depend on the processing

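The counts of CCT genes with a peak stayed at 8 at day 5 and 7 without doxycycline with gene-end windows of 500 and 2500 bp and with the summit in place of the peak edge. With the 5′ end alone, for members with a known strand, they were 7 and 6, CCT6A being left out by construction. The 7 genes in both lists also had peaks that overlapped by at least 1 bp, by 50% reciprocally and with summits within 500 bp. Promoters with CACGTG numbered 0, and 4 when the related forms were added, by construction. Taking CCT6A by its peak at the PSPH end was added after seeing the data, and gave 7 members with a ratio above 1 in place of 6. In all, 26 of 27 alternative values for the main results kept within 1.5 times. No paired analysis was possible because each condition has 1 library. Depth limits the weak members most: a peak of 7 fragments has a counting interval of 2.81 to 14.4.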

Other observations

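Of 18 pseudogenes of the CCT subunits in the annotation, 1 had a Myc peak within 1 kb in each library. Of all 16845 pseudogenes on the same chromosomes, 1.45% had a peak at day 5 and 0.748% without doxycycline. The one listed was CCT6P1, a transcribed copy of CCT6A on chromosome 7 (65751105 to 65763675). Its peak had 17 fragments at day 5 (9.9 to 27.2) and 12 without doxycycline (6.2 to 21), with the summit 214 bp at day 5 and 231 bp without doxycycline from its lower-coordinate end. CCT6A had 14 fragments at day 5 and 11 without doxycycline at its PSPH end. Reads from near-identical copies can be exchanged between them, which was not tested.

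Apart from the CCT genes, the pairs of rank percentiles nearest to that of CCT3 over the 2 libraries were those of TSACC, which shares its peak, of CIC, a repressor controlled by MAP kinase signalling, and, at equal distance, of RBM15, an RNA-binding protein of the m6A writer complex, and its neighbour LOC124904276, which share 1 peak. CIC had 86 fragments at day 5 and 61 without doxycycline, and the peak of RBM15 and LOC124904276 had 99 at day 5 and 81 without doxycycline.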
